A study of Rattus norvegicus with 46 samples.

Results

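The villus top and the villus bottom of the duodenum were compared within 3 Belgrade rats fed iron for 6 days, with 6 of the 46 arrays of the series, 3 of the top and 3 of the bottom. The 6 arrays were chosen by their labels alone and were paired within a rat. Belgrade rats (b/b) carry a mutation of Slc11a2, the divalent metal transporter of the brush border also called DMT1, on a Wistar background, so all Belgrade groups, the unfed ones included, carried the altered transporter. Iron was given before death and all rats were fasted overnight. A duodenal segment of 1 cm, taken 1 cm from the pylorus, was sectioned across the crypt-villus axis, and sections of the uppermost and of the lowest part of the villus were pooled separately for RNA. The 3 groups set beside it were Belgrade rats on a normal diet, called unfed here (8 arrays, 4 rats), Belgrade rats fed iron for 3 days (8 arrays, 4 rats) and Wistar rats (+/+) on a normal diet, the control (8 arrays, 4 rats). An age of 1 month was given for the Wistar rats. For the Belgrade rats neither an age nor a separate iron dose was stated.

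Epithelial cells of the small intestine are born in crypts, stop dividing as they enter the villus, take up absorptive functions while they move upward, and are shed at the tip. Opposing gradients of Wnt and BMP signals from the stroma accompany this movement, and digestion and uptake of nutrients are carried out by mature enterocytes. The duodenum is the main site of iron uptake, where a reductase and Slc11a2 act in the brush border and ferroportin with hephaestin act at the basolateral side. A bulk section holds epithelium, stroma, vessels, nerves and immune cells together, and fewer cells of a type cannot be told apart from less RNA per cell.

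Affymetrix arrays gave 1 intensity for each of 31042 non-control probe sets, of which 26517 passed a filter on low values. Levels below are normalized log2 intensities with 44 intensity units added, and a difference is top minus bottom within a rat, in log2 units. All adjusted p values are from limma, two-sided, with Benjamini-Hochberg adjustment over all 26517, and those under 0.05 passed. The spread was shared over 6 groups of rats, the 4 above and a pair of Wistar groups that received a low iron diet and were bled every 3 days over 4 weeks. One of these stayed iron deficient (8 arrays, 4 rats), and the other, called iron-repleted, drank ferric ammonium citrate for 3 days before death (6 arrays, 3 rats). Levels below 8.99, the 40th percentile, are called dim, and the level that an intensity of 0 would give is 5.46. Arrays carry no detection calls in the values used, so folds with a dim side depend on the added 44 units. The 3 rats are separate animals by their labels.

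Epithelial markers were bright in all 6 arrays. Fabp1, a fatty acid binding protein of enterocytes, had 17.98, 18.03 and 18.03 at the top and 17.91, 17.72 and 17.79 at the bottom. Cdh17, an intestinal cadherin, had 17.09, 17.04 and 17.15 at the top and 16.22, 16.30 and 16.17 at the bottom. Median intensities were 620.1, 608 and 678.3 at the top and 735.8, 699.5 and 727 at the bottom, within the range of 597 to 1179 over the 44 villus arrays. Rats 1, 2 and 3 correlated at 0.43 to 0.454 in their differences over all 26517 probe sets tested. Within these 6 arrays, markers of other tissue stood out in 2 of the bottom. These were smooth muscle markers in rat 1 and exocrine pancreas markers in rat 2, with values given beside the marker lists. In the bottom arrays of the other groups, with near-identical rats averaged, smooth muscle markers averaged 11.75 to 15.71. Exocrine pancreas markers averaged 7.69 to 15.23 there. Both reached higher levels in other groups, and the part of such tissue in comparisons with them was not tested.

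A total of 6015 of 26517 probe sets passed (22.7%), 2758 of them higher at the top (10.4%) and 3257 lower (12.3%). Among genes, each read by its brightest probe set, 3875 of 12975 passed (29.9%), with 1541 higher (11.9%) and 2334 lower (18%). These shares are the background for the counts of every gene list below. A list whose counts lie near them does not stand out from all genes. Differences over 2-fold were measured in 2082 of the higher and 2318 of the lower probe sets, and over 8-fold in 157 and 130. The 3 top arrays did not overlap the 3 bottom arrays in 10671 probe sets (40.2%), which include 5759 of the 6015 that passed. The median difference was -0.0145 over all probe sets and -0.10 over genes, where it was -0.06 with median centring and -0.23 on the deposited scale. With the spread taken from these 3 rats alone, limma passed 0 probe sets (smallest adjusted p 0.0585), while 8309 had an unadjusted p under 0.05, so the calls rest on the spread shared with the other groups. Without rat 1, 2 or 3 the number that passed was 4229, 4199 or 3714.

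The largest rises at the villus top included genes of absorptive and barrier epithelium. Gprc5a, an orphan receptor of epithelia induced by retinoic acid, had levels of 15.73, 15.93 and 15.87 at the top and 9.70, 9.52 and 8.97 at the bottom. It was higher at the top by 6.45 ± 0.38 (SE, adjusted p = 5.95e-08), an intensity ratio of 87.1. Cldn4, a tight junction claudin, had 15.96, 16.40 and 16.18 at the top and 10.10, 10.67 and 10.73 at the bottom and was higher by 5.68 ± 0.24 (SE, adjusted p = 9.97e-10). In both genes the 3 rats lay close together within a segment and the segments were far apart. Areg, a ligand of the EGF receptor, had 15.47, 15.45 and 14.55 at the top and 9.67, 10.45 and 9.27 at the bottom and was higher by 5.36 ± 0.53 (SE, adjusted p = 5.90e-06). Akp3, an intestinal alkaline phosphatase of the brush border, had 16.89, 16.66 and 16.93 at the top and 12.36, 10.57 and 11.93 at the bottom and was higher by 5.20 ± 0.57 (SE, adjusted p = 1.35e-05), with rat 2 lowest in both segments.

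Of the other large rises, several began from a dim villus bottom. Dhrs9, a dehydrogenase that can act on retinol, had 11.89, 12.83 and 12.76 at the top and 6.83, 6.04 and 7.47 at the bottom, a difference of 5.72 ± 0.54 (SE) that was 6.06 or 4.79 when 23 or 142 units were added instead of 44. Bmp8a, a BMP ligand, had 10.60, 11.16 and 10.87 at the top and 5.91, 6.29 and 6.36 at the bottom, a difference of 4.69 ± 0.35 (SE) that was 5.18 or 3.53 under those additions. Tlr2, a receptor for bacterial lipoproteins, had 10.89, 11.41 and 12.12 at the top and 5.87, 7.83 and 6.06 at the bottom, with rat 2 brighter than the others at the bottom. All 3 of these genes were dim in every bottom array and above the dim level in every top array. Cda, which deaminates cytidine, differed by 4.97 ± 0.42 (SE), and Cemip, which takes part in breaking down hyaluronan, by 4.86 ± 0.33 (SE). Aqp7, a water and glycerol channel, differed by 4.81 ± 0.44 (SE), and Apoa4, an apolipoprotein of chylomicrons, by 4.79 ± 0.45 (SE), and both were above the dim level in every bottom array. Stfa3, a cysteine protease inhibitor of the stefin family, differed by 4.87 ± 0.63 (SE), and its probe set may read close relatives. The adjusted p values of these 8 genes lay between 3.28e-07 and 4.88e-05.

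**Figure D1:**
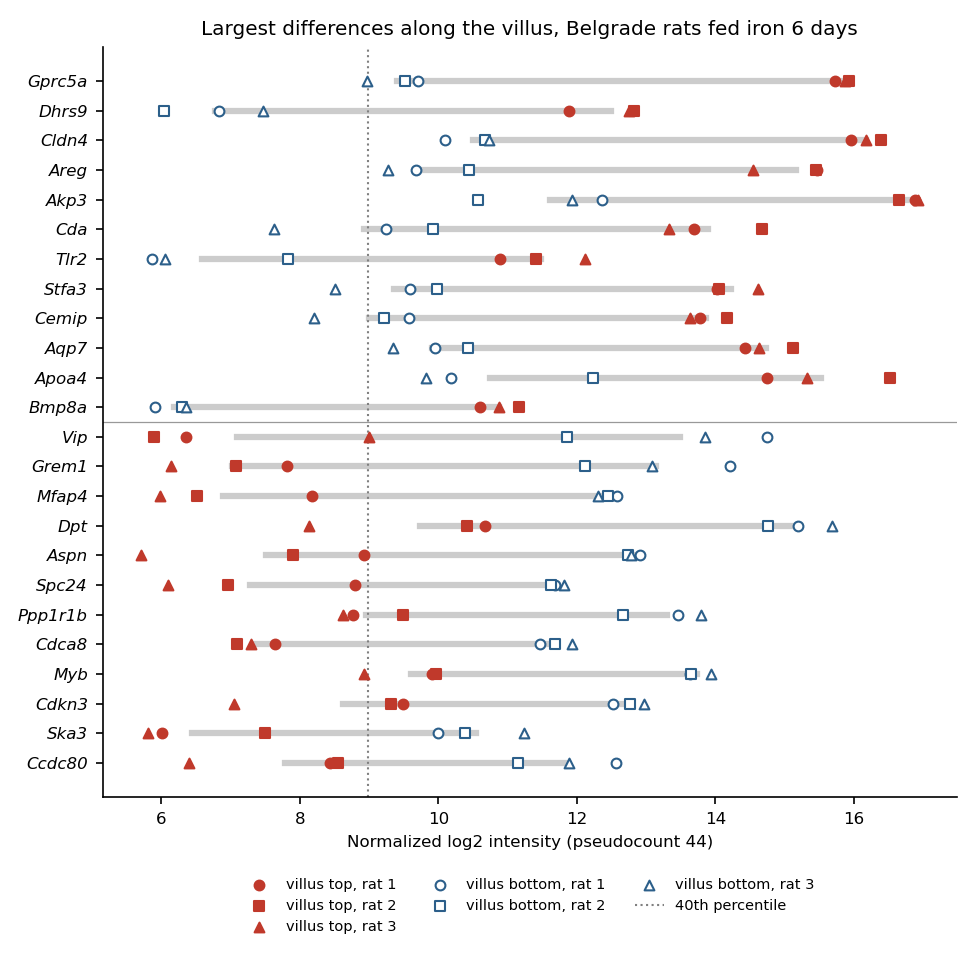
Normalized log2 intensity (x axis) of the 12 genes with the largest rise and the 12 with the largest fall, in each of the 3 rats. Filled symbols are villus top arrays, open symbols are bottom arrays, grey bars join the means, and the dotted line is the dim level of 8.99. Every gene shown separates the 3 top from the 3 bottom arrays, which was part of how the genes were chosen.

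The largest falls at the top included stromal and proliferation genes. Vip, a neuropeptide of enteric nerves, had 6.36, 5.90 and 9.00 at the top and 14.75, 11.86 and 13.85 at the bottom and was lower at the top by a log2 difference of -6.40 ± 0.91 (SE, adjusted p = 0.000110). Grem1, a BMP antagonist made by fibroblasts below the crypts, had 7.82, 7.08 and 6.15 at the top and 14.21, 12.12 and 13.09 at the bottom and differed by -6.12 ± 1.09 (SE, adjusted p = 0.000675). Both were highest in the bottom array of rat 1 and dim in nearly all top arrays. Smooth muscle markers averaged 13.98 in that array, against 12.56 and 12.96 in the bottom arrays of rats 2 and 3, and without rat 1 the Vip and Grem1 differences were -5.41 and -5.99 (adjusted p = 0.00288 and 0.00787). Dpt, a matrix protein of connective tissue, had 10.67, 10.41 and 8.13 at the top and 15.20, 14.76 and 15.69 at the bottom and differed by -5.48 ± 0.71 (SE, adjusted p = 4.92e-05). Mfap4, a microfibril protein, had 8.17, 6.52 and 5.98 at the top and 12.58, 12.45 and 12.31 at the bottom, and Aspn, a small matrix proteoglycan, had 8.92, 7.90 and 5.71 at the top and 12.91, 12.74 and 12.78 at the bottom. Their bottom levels were nearly the same in the 3 rats, while their top levels spread over more than 2 log2 units and included values near the 5.46 of an intensity of 0. Their differences were -5.56 ± 0.55 (SE) and -5.30 ± 0.87 (SE), and -5.91 and -5.61 with 23 units added, or -4.64 and -4.56 with 142.

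Of the other 7 genes with the largest falls, 4 serve cell division. Spc24, a kinetochore protein, differed by -4.43 ± 0.73 (SE), Cdca8, a chromosomal passenger protein, by -4.35 ± 0.65 (SE), Cdkn3, a phosphatase of cyclin-dependent kinases, by -4.13 ± 0.61 (SE) and Ska3, which binds spindle microtubules, by -4.10 ± 0.65 (SE). Cdca8 had 7.64, 7.10 and 7.30 at the top and 11.47, 11.68 and 11.93 at the bottom, with little spread in either segment. Myb, a transcription factor of dividing progenitors, had 9.91, 9.97 and 8.93 at the top and 13.63, 13.65 and 13.94 at the bottom and differed by -4.14 ± 0.53 (SE, adjusted p = 4.29e-05). Ppp1r1b, an inhibitor of protein phosphatase 1, differed by -4.35 ± 0.76 (SE) and Ccdc80, a secreted matrix protein, by -4.07 ± 0.82 (SE). The top side of 10 of the 12 genes, all but Dpt and Myb, was dim on average.

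Several iron uptake and export genes were higher at the top, in rats whose apical transporter is mutated. Of 18 iron genes tested, 7 were higher and 4 lower (2 or 3 lower without 1 rat), with a median difference of 0.77, against -0.10 over all genes. Cybrd1, the ferric reductase of the brush border, had 17.37, 17.49 and 17.37 at the top and 14.52, 14.99 and 13.89 at the bottom and rose by 2.94 ± 0.61 (SE, adjusted p = 0.00216). Heph, the ferroxidase hephaestin, had 16.80, 16.73 and 16.81 at the top and 14.33, 14.37 and 13.81 at the bottom and rose by 2.61 ± 0.38 (SE, adjusted p = 0.000119). In both genes the top levels of the 3 rats lay close together and the bottom of rat 3 was lowest. Ireb2, the RNA-binding iron regulatory protein 2, had 13.87, 14.21 and 14.15 at the top and 10.86, 11.24 and 9.97 at the bottom and rose by 3.39 ± 0.31 (SE, adjusted p = 4.12e-06), the largest of the 18 differences. Aco1, iron regulatory protein 1, was called lower (-0.845, adjusted p = 0.00860), as were Pcbp2 (-0.99), Pcbp1 (-0.77) and Tfrc.

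Slc40a1, the iron exporter ferroportin, had 17.10, 17.32 and 17.26 at the top and 15.47, 15.61 and 15.13 at the bottom for its brightest probe set, which rose by 1.83 ± 0.41 (SE, adjusted p = 0.00391). A second bright probe set of the gene rose by 1.97 ± 0.41 (SE, adjusted p = 0.00207). Another less bright one had 12.82, 11.82 and 13.04 at the top and 12.11, 12.30 and 12.75 at the bottom, with overlapping segments and a difference of 0.17 ± 0.67 (SE, adjusted p = 0.891), and its sign turned to -0.10 without rat 1. The brighter probe set of the mutated gene Slc11a2 had 17.28, 17.33 and 17.32 at the top and 16.34, 16.46 and 16.20 at the bottom and a difference of 0.97 ± 0.55 (SE, adjusted p = 0.240), which did not pass. Its segments did not overlap, and it passed when the spread came from Belgrade rats only (adjusted p = 0.00784) or without 1 iron-repleted Wistar rat (0.0269). The less bright probe set had 15.44, 15.75 and 15.55 at the top and 13.56, 13.78 and 12.44 at the bottom and rose by 2.32 ± 0.42 (SE, adjusted p = 0.000711). Slc11a2 was bright in all 6 arrays, and array levels of this transcript do not check the genotype label.

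Tfrc, the transferrin receptor, ran the other way. Its brighter probe set had 15.04, 14.70 and 14.76 at the top and 16.21, 16.06 and 16.17 at the bottom and fell, with a difference of -1.31 ± 0.42 (SE, adjusted p = 0.0319). This call was lost with the values as deposited (adjusted p = 0.0922), with median centring (0.199) and without any 1 of the rats (0.0908 to 0.134). The less bright probe set had 12.59, 12.39 and 12.57 at the top and 14.33, 14.18 and 13.76 at the bottom and fell, with a difference of -1.57 ± 0.37 (SE, adjusted p = 0.00489). Both probe sets were lower at the top in all 3 rats.

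Of 15 heme genes tested, 5 were higher (3 without rat 1) and 2 lower (1 without rat 3), with a median of -0.19, or -0.40 with the values as deposited. Slc46a1, a folate transporter that also takes up heme, had 12.33, 13.45 and 12.36 at the top and 8.52, 9.63 and 9.34 at the bottom and rose by 3.55 ± 0.46 (SE, adjusted p = 5.10e-05). Hmox1, which breaks down heme, had 13.22, 13.51 and 13.35 at the top and 11.27, 11.45 and 10.84 at the bottom and rose by 2.17 ± 0.48 (SE, adjusted p = 0.00339). Abcg2, an efflux pump that also exports porphyrins, had 16.25, 16.33 and 16.47 at the top and 12.38, 13.36 and 12.09 at the bottom and rose by 3.74 ± 0.59 (SE, adjusted p = 0.000245). The 3 genes separated the segments in each rat. Alox15, an arachidonate lipoxygenase, had 13.68, 11.99 and 12.83 at the top and 12.46, 11.98 and 12.86 at the bottom, with overlapping segments and a difference of 0.40 ± 0.50 (SE). Copper and zinc genes were higher in 5 and lower in 2 of 17 (1 lower without rat 2 or 3), and their median of 0.15 was 0.06 with median centring and -0.12 on the deposited scale. Atp7a, which exports copper at the basolateral side, rose by 2.26 ± 0.22 (SE) on all 3 of its probe sets, Slc30a2, a zinc transporter of vesicles, by 2.12 ± 0.41 (SE) and Slc39a4, the zinc importer of the brush border, by 1.93 ± 0.31 (SE).

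**Figure D2:**
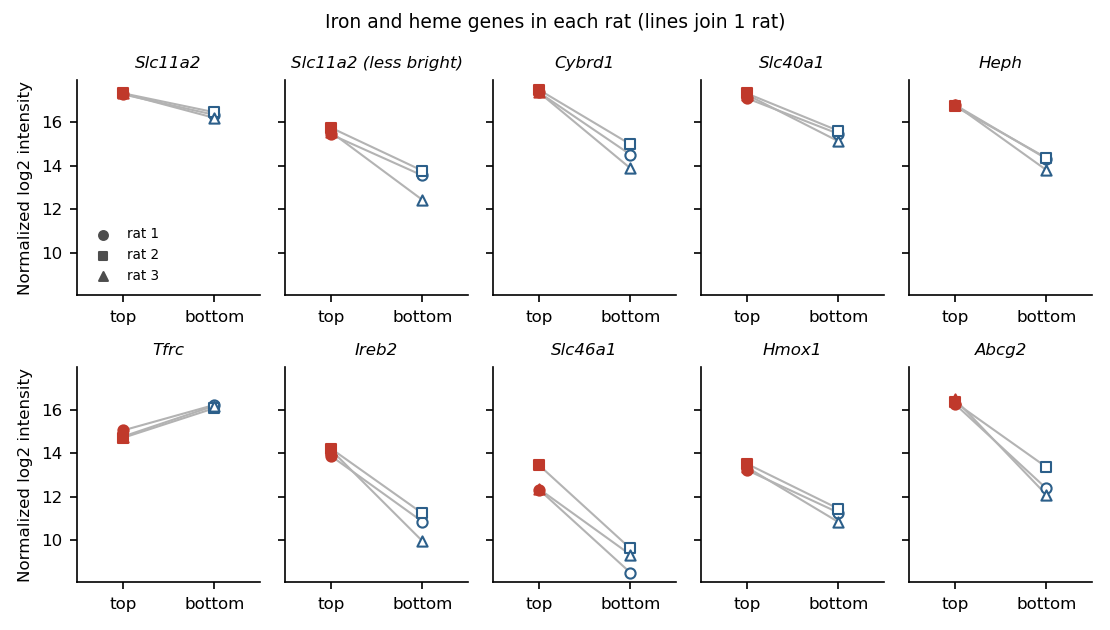
Normalized log2 intensity (y axis) of iron and heme genes at the villus top and bottom of the 3 rats, with a line for each rat and the rats given by symbol. Cybrd1, Heph, Ireb2, Slc46a1, Hmox1 and Abcg2 were higher at the top in every rat, Tfrc was lower, and the brighter probe set of Slc11a2 differed by 0.97 without passing the test.

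Of 16 brush border hydrolases and structural genes, 11 were higher and 0 lower, with a median of 2.13, and 9 were higher when any 1 rat was left out. Ace, angiotensin-converting enzyme, which also trims peptides in the brush border, had 16.29, 16.45 and 16.17 at the top and 12.23, 12.65 and 11.52 at the bottom and rose by 4.17 ± 0.41 (SE, adjusted p = 5.90e-06). Treh, which splits trehalose, rose by 3.64 ± 0.73 (SE) and Mep1a, a subunit of the metalloprotease meprin, by 3.45 ± 0.52 (SE). Vil1, the microvillus protein villin, had 16.55, 16.16 and 16.51 at the top and 15.68, 15.88 and 15.67 at the bottom, a difference of 0.66 ± 0.31 (SE) that did not pass (adjusted p = 0.142).

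Peptide and amino acid transporters were higher in 6 and lower in 1 of 15 (median 0.37, or 0.68 with median centring), and without 1 rat 2 to 4 were higher and 0 (without rat 2) or 1 lower. Slc15a1, the peptide transporter PEPT1, had 14.70, 15.45 and 14.65 at the top and 11.47, 11.91 and 11.13 at the bottom and rose by 3.43 ± 0.42 (SE, adjusted p = 3.03e-05). Slc3a1, a subunit of the brush border transporter of basic amino acids and cystine, rose by 2.82 ± 0.44 (SE). Among 8 sugar genes, 1 was higher and 0 lower: Slc2a1, a glucose transporter, rose by 1.67 ± 0.26 (SE). The median of the 8 was 1.21, and the other 7 did not pass.

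Fat absorption genes were higher in 12 and lower in 0 of 21, with a median of 1.31. Without rat 3, 6 were higher, and without rat 1 or 2, 9. Apoa4 had 14.74, 16.53 and 15.33 at the top and 10.18, 12.23 and 9.82 at the bottom, with rat 2 brightest in both segments, and rose by 4.79 ± 0.45 (SE, adjusted p = 4.77e-06). Apob, the backbone of the chylomicron, had 16.90, 17.20 and 16.87 at the top and 14.06, 14.35 and 14.07 at the bottom and rose by 2.83 ± 0.46 (SE, adjusted p = 0.000320). Apoc2, which activates lipoprotein lipase, rose by 3.76 ± 0.87 (SE), and Fabp2, an intestinal fatty acid binding protein, had a difference of 2.12 ± 0.54 (SE) with an adjusted p of 0.00923. Fabp1 differed by 0.21 ± 0.46 (SE) (adjusted p = 0.802) at the upper end of the intensity scale.

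Ion and water transport genes were higher in 10 and lower in 2 of 23 (1 lower without rat 2, median 0.84). Aqp7 had 14.43, 15.12 and 14.63 at the top and 9.96, 10.43 and 9.35 at the bottom, and Aqp3, another channel for water and glycerol, had 12.40, 13.63 and 12.40 at the top and 8.57, 9.09 and 8.11 at the bottom. They rose by 4.81 ± 0.44 (SE) and 4.22 ± 0.47 (SE). Car2, the cytosolic carbonic anhydrase, rose by 4.35 ± 0.42 (SE) and Slc9a2, a sodium-proton exchanger, by 2.98 ± 0.41 (SE). Among 13 calcium and phosphate genes, 4 were higher and 1 lower (0 lower without rat 2 or 3). Trpv6, the apical calcium channel, had 15, 14.78 and 15.08 at the top and 11.74, 10.59 and 11.41 at the bottom and rose by 3.71 ± 0.32 (SE, adjusted p = 2.35e-06), and Atp2b1, which pumps calcium out of the cell, rose by 1.34 ± 0.21 (SE).

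Efflux pumps and xenobiotic enzymes were higher in 8 and lower in 0 of 19 (median 1.45), and in 3 to 5 without 1 rat. Abcb1a, the multidrug pump P-glycoprotein, had 14.61, 14.21 and 13.96 at the top and 10.89, 10.74 and 9.20 at the bottom and rose by 3.98 ± 0.31 (SE, adjusted p = 9.69e-07). Abcc2, an efflux pump for conjugates, rose by 2.59 ± 0.47 (SE). Of 15 genes of nucleoside and purine breakdown, 6 were higher and 0 lower. Ampd3, an AMP deaminase, had 14.72, 14.64 and 14.74 at the top and 11.37, 11.94 and 11.37 at the bottom and rose by 3.14 ± 0.28 (SE, adjusted p = 3.64e-06). Slc28a2, a concentrative nucleoside transporter, rose by 2.77 ± 0.36 (SE) and Enpp3, an ectonucleotide pyrophosphatase, by 2.53 ± 0.30 (SE).

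Retinoid genes were higher in 4 and lower in 1 of 13 (2 or 3 higher without 1 rat), where 11.9% of all genes were higher and 18% lower. Lrat, which makes retinyl esters, had 10.73, 10.40 and 10.43 at the top and 6.65, 6.23 and 6.52 at the bottom and rose by 4.05 ± 0.38 (SE, adjusted p = 4.62e-06), with little spread between rats and a dim bottom. Rdh7, a retinol dehydrogenase, had 13.37, 13.78 and 13.19 at the top and 9.02, 10.67 and 8.61 at the bottom and rose by 4.01 ± 0.59 (SE, adjusted p = 0.000152). Aldh1a1, a retinal dehydrogenase that makes retinoic acid, had 12.71, 11.91 and 12.17 at the top and 14.85, 14.67 and 14.45 at the bottom and fell, with a difference of -2.39 ± 0.56 (SE, adjusted p = 0.00538). Cholesterol synthesis genes were higher in 4 and lower in 1 of 16 (1 or 2 higher and 0 lower without 1 rat), and Insig1, which holds back SREBP processing, rose by 2.38 ± 0.43 (SE). NRF2 target genes were higher in 3 and lower in 5 of 19 (1 or 2 lower without 1 rat), and their median of -0.14 changed sign on the deposited scale (0.03) and when arrays were median-centred (0.20). Srxn1, sulfiredoxin, rose by 2.57 ± 0.42 (SE) and Me1, malic enzyme, by 2.17 ± 0.41 (SE). The largest difference of the list was a fall, that of Gsta3 (-2.82, adjusted p = 0.00897). Nqo1 (-1.11), Sod1 (-1.03), Gstp1 (-0.86) and Gsr (-0.82) were the other members called lower.

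EGF receptor ligands were among the largest rises. Of 13 genes of the family, 7 were higher and 1 lower (2 without rat 1), with a median of 1.43. Hbegf, a heparin-binding ligand, had 13.47, 13.02 and 12.71 at the top and 9.72, 9.04 and 7.82 at the bottom and rose by 4.21 ± 0.39 (SE, adjusted p = 4.62e-06). Nrg1, a ligand of the ErbB3 and ErbB4 receptors, had 13.24, 12.16 and 12.83 at the top and 9.83, 9.61 and 8.51 at the bottom and rose by 3.43 ± 0.34 (SE, adjusted p = 5.91e-06), and 3 of its 7 probe sets passed in this direction. Lrig1, which restrains EGF receptor signalling and marks crypt progenitors, had 10.14, 10.29 and 10.17 at the top and 13.01, 12.43 and 12.94 at the bottom and fell, with a difference of -2.60 ± 0.36 (SE, adjusted p = 8.18e-05). Hbegf and Nrg1 ran opposite to Lrig1 in each of the 3 rats. Errfi1, a further inhibitor of the receptor, rose with them, by 2.53 (adjusted p = 3.10e-06). The ligands Btc (0.24) and Egf (-1.52) did not pass.

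BMP, hedgehog and Notch genes were higher in 7 and lower in 4 of 26 (1 or 2 lower without 1 rat). Bmp2, a ligand, had 13.79, 13.64 and 13.57 at the top and 11.74, 11.50 and 12.04 at the bottom and rose by 1.91 ± 0.20 (SE, adjusted p = 1.01e-05). Smad7, an inhibitory Smad induced by the pathway, rose by 2.04 ± 0.25 (SE) on all 3 of its probe sets, while the antagonist Grem1 had the second largest fall of all genes. Fst, a further antagonist, was called higher (1.62, adjusted p = 0.00655). The other members called lower were Chrdl1 (-2.74), Id4 (-1.11) and Smad1 (-0.64). Among 25 intestinal transcription factors, 6 were higher and 4 lower, and the median of -0.04 changed sign with median centring (0.15). Klf4, a factor of differentiated epithelium, had 16.45, 16.61 and 16.46 at the top and 13.70, 13.59 and 13.77 at the bottom and rose by 2.82 ± 0.17 (SE, adjusted p = 5.95e-08). Pparg, a nuclear receptor for fatty acids, had 13.46, 13.35 and 13.30 at the top and 9.67, 9.63 and 9.54 at the bottom and rose by 3.76 ± 0.24 (SE, adjusted p = 1.87e-07). Ehf, an Ets factor of epithelia, had 6.03, 7.39 and 7.22 at the top and 10.94, 11.30 and 10.45 at the bottom and fell, with a difference of -4.01 ± 0.61 (SE, adjusted p = 0.000193). Nr5a2, the liver receptor homolog, fell on its brightest probe set, with a difference of -2.45 ± 0.45 (SE), and 1 of its 3 probe sets passed.

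Immediate early genes were higher in 15 and lower in 1 of 25, with a median of 1.75, and without any 1 rat 15 were higher and at most 1 lower. Fos, a subunit of AP-1, had 15.66, 15.49 and 15.51 at the top and 13.38, 13.14 and 12.10 at the bottom and rose by 2.68 ± 0.51 (SE, adjusted p = 0.00106) on 1 of its 2 probe sets. Junb, another subunit, had 15.27, 14.76 and 14.83 at the top and 12.64, 12.04 and 12.06 at the bottom and rose by 2.71 ± 0.30 (SE, adjusted p = 1.37e-05). Atf3, a stress-induced factor, rose by 3.80 ± 0.62 (SE) and Fosl1, a further AP-1 subunit, by 2.98 ± 0.52 (SE), both from a dim bottom.

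Hypoxia-inducible and glycolysis genes were higher in 17 and lower in 0 of 28, with a median of 0.94, and 13 or 14 were higher without 1 rat. Slc16a3, a lactate exporter, had 14.46, 14.33 and 14.79 at the top and 9.76, 10.14 and 10.41 at the bottom and rose by 4.43 ± 0.49 (SE, adjusted p = 1.55e-05). Car9, a carbonic anhydrase of the cell surface, had 14.17, 13.93 and 14.32 at the top and 11.01, 10.59 and 11 at the bottom and rose by 3.27 ± 0.40 (SE, adjusted p = 2.89e-05). Adm, the peptide adrenomedullin, rose by 3.59 ± 0.84 (SE) from a dim bottom and Pfkfb4, which regulates glycolysis, by 2.39 ± 0.38 (SE). Circadian clock genes were higher in 5 and lower in 1 of 17 (2 lower without rat 2), among them Nr1d1, a repressor of the clock, which had 11.07, 11.64 and 10.61 at the top and 9.40, 10.05 and 8.63 at the bottom and rose by 1.75 ± 0.27 (SE, adjusted p = 0.000235). The clock median of 0.0034 was -0.24 on the deposited scale and -0.07 with median centring.

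Stress and death genes moved in both directions. Of 21 heat shock and unfolded protein genes, 4 were higher and 10 lower (8 or 9 lower without 1 rat). Over all genes the shares were 11.9% higher and 18% lower, so falls prevailed in this list. Trib3, a pseudokinase induced by ATF4, had 14.18, 14.08 and 14.13 at the top and 9.70, 10.71 and 10.13 at the bottom and rose by 3.95 ± 0.31 (SE, adjusted p = 9.69e-07). Ddit3, the factor CHOP, rose by 1.74 ± 0.33 (SE) and Dnajb9, a cochaperone of the endoplasmic reticulum, by 1.78 ± 0.20 (SE), whereas Pdia4, a protein disulfide isomerase, fell, with a difference of -1.69 ± 0.31 (SE). The next largest falls of the list were those of Sdf2l1 (-1.67), Creld2 (-1.60) and Hsp90ab1 (-1.48). Among 22 cell death genes, 9 were higher and 3 lower. Tnfrsf1a, the TNF receptor, rose by 1.40 ± 0.19 (SE), while Casp1, the inflammatory caspase, and Tnfsf10, the ligand TRAIL, fell, with differences of -2.13 ± 0.36 (SE) and -1.41 ± 0.20 (SE). Without rat 3, 4 were higher.

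Cell cycle genes were lower at the top as a group. Of 43 tested, 41 were lower and 0 higher, with a median of -2.49, and 29 to 35 were lower without 1 rat. Mki67, the proliferation antigen Ki-67, had 10.81, 11.34 and 10.76 at the top and 14.29, 14.15 and 14.93 at the bottom and fell, with a difference of -3.48 ± 0.54 (SE, adjusted p = 0.000211). Mcm5, a subunit of the replicative helicase, had 8.80, 7.57 and 8.00 at the top and 11.82, 11.92 and 12.45 at the bottom and fell, with a difference of -3.94 ± 0.47 (SE, adjusted p = 2.51e-05), where its top side was dim. Ccna2, cyclin A2, differed by -3.88 ± 0.64 (SE) and Prim1, a primase subunit, by -3.41 ± 0.55 (SE). The segments did not overlap in these 4 genes, and the bottom of rat 3 was brightest in each.

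Promoter sequences are shown for Mcm5 and Mki67, the 2 cell cycle members with the largest falls among those with an entry, and for Dhrs9, the gene with the largest rise among those with one, because genes of the first kind moved together. They are RefSeq sequences of build GRCr8, from 250 bases before to 50 bases after the annotated gene start, 5′ to 3′ on the gene's strand. Mcm5 lies at chr19:13488563-13488862 (plus strand), Mki67 at chr1:199952544-199952843 (minus strand) and Dhrs9 at chr3:74555435-74555734 (plus strand). Capitals mark matches, on either strand, to 6 motifs: the CCAAT box (CCAAT), the cell cycle homology region (TTTGAA), an E2F motif (TTCCCGC), the TATA box (TATAAA), an AP-1 motif (TGANTCA) and an HNF4 motif (CAAAGTCCA).
Mcm5: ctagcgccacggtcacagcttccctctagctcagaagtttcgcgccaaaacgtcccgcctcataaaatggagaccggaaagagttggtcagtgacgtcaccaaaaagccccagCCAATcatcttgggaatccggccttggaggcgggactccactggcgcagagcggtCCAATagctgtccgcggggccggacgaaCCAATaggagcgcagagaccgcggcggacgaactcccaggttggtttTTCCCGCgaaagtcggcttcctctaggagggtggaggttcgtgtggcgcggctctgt
Mki67: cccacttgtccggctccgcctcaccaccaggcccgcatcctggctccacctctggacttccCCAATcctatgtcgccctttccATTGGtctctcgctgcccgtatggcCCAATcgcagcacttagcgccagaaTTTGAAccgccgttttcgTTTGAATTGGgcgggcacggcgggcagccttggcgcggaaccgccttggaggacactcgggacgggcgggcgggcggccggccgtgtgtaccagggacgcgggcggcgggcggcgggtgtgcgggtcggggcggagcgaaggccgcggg
Dhrs9: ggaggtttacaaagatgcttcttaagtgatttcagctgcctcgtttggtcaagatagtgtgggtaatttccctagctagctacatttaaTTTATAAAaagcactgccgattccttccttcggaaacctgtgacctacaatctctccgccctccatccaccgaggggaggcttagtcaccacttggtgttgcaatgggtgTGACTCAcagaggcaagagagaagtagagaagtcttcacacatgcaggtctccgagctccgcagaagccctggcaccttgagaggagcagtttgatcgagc
Mcm5 held 3 CCAAT boxes, starting at -137, -82 and -54 from the gene start, and an E2F motif at -7. Mki67 held 4 CCAAT boxes, starting at -189, -167, -142 and -94, and 2 cell cycle homology regions at -117 and -99, of which the second overlaps the last CCAAT box. Dhrs9 held 1 AP-1 motif at -51 and 2 overlapping TATA matches at -161 and -159. A CCAAT box was found in 25 of 36 cell cycle promoters (69.4%), in 43% of those of genes lower at the top, in 35.5% of those of genes higher at the top, in 37.4% of those of genes tested and in 37.7% of all 27457 promoters. The cell cycle homology region was found in 38.9% of the 36, against 11.9% of the 10727 promoters of genes tested and 18.1% of all. The E2F motif was found in 25% of the 36, against 7.81% of those of genes tested and 4.47% of all. The TATA box was found in 2.78% of the 36, in 7.8% of those of genes tested and in 14.3% of all. The AP-1 motif was found in 7.81% of promoters of genes higher at the top, in 4.11% of those lower, in 5.15% of those of genes tested and in 7.33% of all. The HNF4 motif was found in 0.552% of promoters of genes higher at the top, in 0.3% of those lower, in 0.373% of those of genes tested and in 0.375% of all. These are matches of letters in a window and were not tested.

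Ribosome biogenesis genes were lower in 27 of 27 and higher in 0, with a median of -1.40, and 23 or 24 were lower without 1 rat. Fbl, fibrillarin, which methylates ribosomal RNA, had 12.19, 11.57 and 12.02 at the top and 14.75, 14.51 and 14.91 at the bottom and fell, with a difference of -2.80 ± 0.30 (SE, adjusted p = 1.32e-05). Nop58, a partner of fibrillarin, had 12.28, 11.66 and 11.69 at the top and 14.32, 14.28 and 14.79 at the bottom and differed by -2.59 ± 0.31 (SE). Polr1b, a subunit of RNA polymerase I, differed by -2.95 ± 0.45 (SE) with a dim top, and Gar1, of the pseudouridylation complex, by -2.92 ± 0.67 (SE). Each of these was lower at the top in every rat.

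Mitochondrial respiration genes were lower in 21 and higher in 2 of 49, with a median of -0.42, or -0.25 on the deposited scale and -0.08 with median centring. Without 1 rat, 9 to 12 were lower. Ndufb10, a subunit of complex I, had 13.70, 13.67 and 13.83 at the top and 15.02, 15.14 and 15.20 at the bottom and fell, with a difference of -1.39 ± 0.19 (SE, adjusted p = 7.35e-05). Ndufa4, first described in complex I and also assigned to cytochrome oxidase, differed by -1.26 ± 0.19 (SE), and Ndufs1, an iron-sulfur subunit of complex I, by -1.04 ± 0.17 (SE). Cs, citrate synthase, had 16.75, 16.75 and 16.72 at the top and 15.73, 15.67 and 15.71 at the bottom and rose by 1.04 ± 0.19 (SE, adjusted p = 0.000729), on 3 of its 4 probe sets.

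Crypt stem cell and Wnt genes were lower in 12 and higher in 2 of 21 (1 higher without any 1 rat), with a median of -1.70. The 2 higher were Tcf7 (1.497, adjusted p = 0.0015) and Lef1 (0.916, adjusted p = 0.0330). Axin2 (1.102) and Nkd1 (0.58) were among those that did not pass, so the list did not run together. Smoc2, a matrix protein of the stem cell signature, had 11.12, 10.46 and 10.81 at the top and 14.94, 14.18 and 15.07 at the bottom and fell, with a difference of -3.94 ± 0.53 (SE, adjusted p = 7.29e-05). Prom1, the membrane protein prominin, had 11.56, 12.20 and 12.09 at the top and 14.98, 14.85 and 15.25 at the bottom and fell, with a difference of -3.08 ± 0.39 (SE, adjusted p = 4.03e-05). Cdca7, a Myc target of dividing cells, differed by -3.26 ± 0.60 (SE). Lgr5, the receptor that marks crypt base stem cells, had 6.76, 9.01 and 8.98 at the top and 10.27, 10.76 and 11.03 at the bottom, a difference of -2.44 ± 0.40 (SE). Lgr5 was above the dim level in all 3 bottom arrays.

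Paneth cell markers were lower in 6 of 7, with a median of -3.36, and 6 were lower without any 1 rat. Pla2g2a, a secreted phospholipase, had 11.61, 11.71 and 11.35 at the top and 15.64, 15.08 and 15.92 at the bottom and fell, with a difference of -3.99 ± 0.93 (SE, adjusted p = 0.00499). Mmp7, the protease that activates defensins in mice, had 6.27, 5.89 and 6.29 at the top and 10.34, 9.11 and 10.29 at the bottom, dim at the top, and fell, with a difference of -3.77 ± 0.59 (SE, adjusted p = 0.000248). RatNP-3b, a defensin, fell, with a difference of -3.38 ± 0.47 (SE), and its probe set may read other defensins. Lyz2, lysozyme, had 14.70, 14.91 and 14.56 at the top and 16.24, 16.11 and 16.12 at the bottom, a difference of -1.44 ± 0.23 (SE). The mean level of the list was 11.37, 11.23 and 11.44 at the top and 14.19, 13.46 and 14.47 at the bottom.

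Goblet cell markers went both ways, with 4 higher and 3 lower of 14 (2 higher without 1 rat). Clca4, listed with the goblet genes, had 17.39, 17.35 and 17.35 at the top and 14.34, 14.34 and 13.51 at the bottom and rose by 3.30 ± 0.49 (SE, adjusted p = 0.000169), whereas Clca1, of the same chloride channel accessory family, had 14.35, 14 and 14.75 at the top and 16.65, 16.54 and 16.86 at the bottom and fell, with a difference of -2.32 ± 0.46 (SE, adjusted p = 0.00166). Agr2, a disulfide isomerase needed for mucin folding, fell, with a difference of -1.92 ± 0.31 (SE), and Spink4, a protease inhibitor, with one of -3.36 ± 0.40 (SE). Spink4 is also counted among the Paneth cell markers. The mucin Muc2 had 16.85, 16.95 and 17.09 at the top and 16.74, 16.35 and 16.93 at the bottom and the trefoil peptide Tff3 had 16.67, 17.01 and 16.91 at the top and 16.71, 16.34 and 16.63 at the bottom, with overlapping segments in both. Their differences, 0.29 ± 0.22 (SE) and 0.30 ± 0.20 (SE), did not pass.

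Enteroendocrine genes were higher in 3 and lower in 2 of 21, and the 2 lower calls were lost without rat 1 or without rat 3. Of all genes 29.9% passed, so this list did not stand out by its number of calls. Sct, the hormone secretin, had 12.33, 12.08 and 12.45 at the top and 9.93, 10.07 and 9.65 at the bottom and rose by 2.41 ± 0.33 (SE, adjusted p = 8.70e-05). Cck, cholecystokinin, had 13.69, 13.91 and 13.93 at the top and 11.78, 12.57 and 12.16 at the bottom and rose by 1.67 ± 0.21 (SE, adjusted p = 3.28e-05). Nts, neurotensin, rose by 2.75 ± 0.44 (SE) from a dim bottom. Chga, a granule protein of endocrine cells, had 11.78, 12.44 and 11.84 at the top and 12.74, 12.47 and 12.82 at the bottom, a difference of -0.66 ± 0.21 (SE) with an adjusted p of 0.0304. Among 12 tuft cell markers, 1 was higher (0 without any 1 rat) and 1 lower (2 without rat 2). The lower one was Avil, the actin-binding advillin, which had 11.11, 10.43 and 11.10 at the top and 12.90, 12.73 and 13.21 at the bottom and a difference of -2.07 ± 0.28 (SE, adjusted p = 7.61e-05). Of 10 markers of Brunner's gland and gastric mucosa, 0 were lower (1 without rat 1) and 1 was higher: Tff1, a trefoil peptide of gastric mucus, had 12.98, 14.05 and 13.75 at the top and 8.89, 8.73 and 9.25 at the bottom and rose by 4.64 ± 0.67 (SE, adjusted p = 0.000120).

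A few barrier and defence genes had steep gradients, while most members of both lists did not pass. Of 19 tight junction, adhesion and keratin genes, 5 were higher and 1 lower, and without any 1 rat 2 were higher and 0 lower. Besides Cldn4, Krt20, a keratin of mature enterocytes, had 17.20, 17.24 and 17.22 at the top and 15.17, 15.45 and 14.93 at the bottom and rose by 2.04 ± 0.37 (SE, adjusted p = 0.000762). Of 18 antimicrobial and defence genes, 2 were higher and 4 lower (2 without rat 1 or 2), with a median of -0.42. These counts lie near the shares over all genes, 11.9% higher and 18% lower. Ccl20, a chemokine that attracts CCR6-bearing cells, had 14.77, 16.44 and 15.15 at the top and 10.49, 12.91 and 10.55 at the bottom and rose by 4.14 ± 0.47 (SE, adjusted p = 1.74e-05), with rat 2 brightest in both segments. Cxcl16, a chemokine for CXCR6-bearing lymphocytes, rose by 2.78 ± 0.27 (SE), and Ccl28, which attracts IgA plasma cells, had 9.17, 9.14 and 9.88 at the top and 11.64, 12.28 and 11.98 at the bottom and fell, with a difference of -2.57 ± 0.32 (SE, adjusted p = 3.66e-05).

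**Figure D3:**
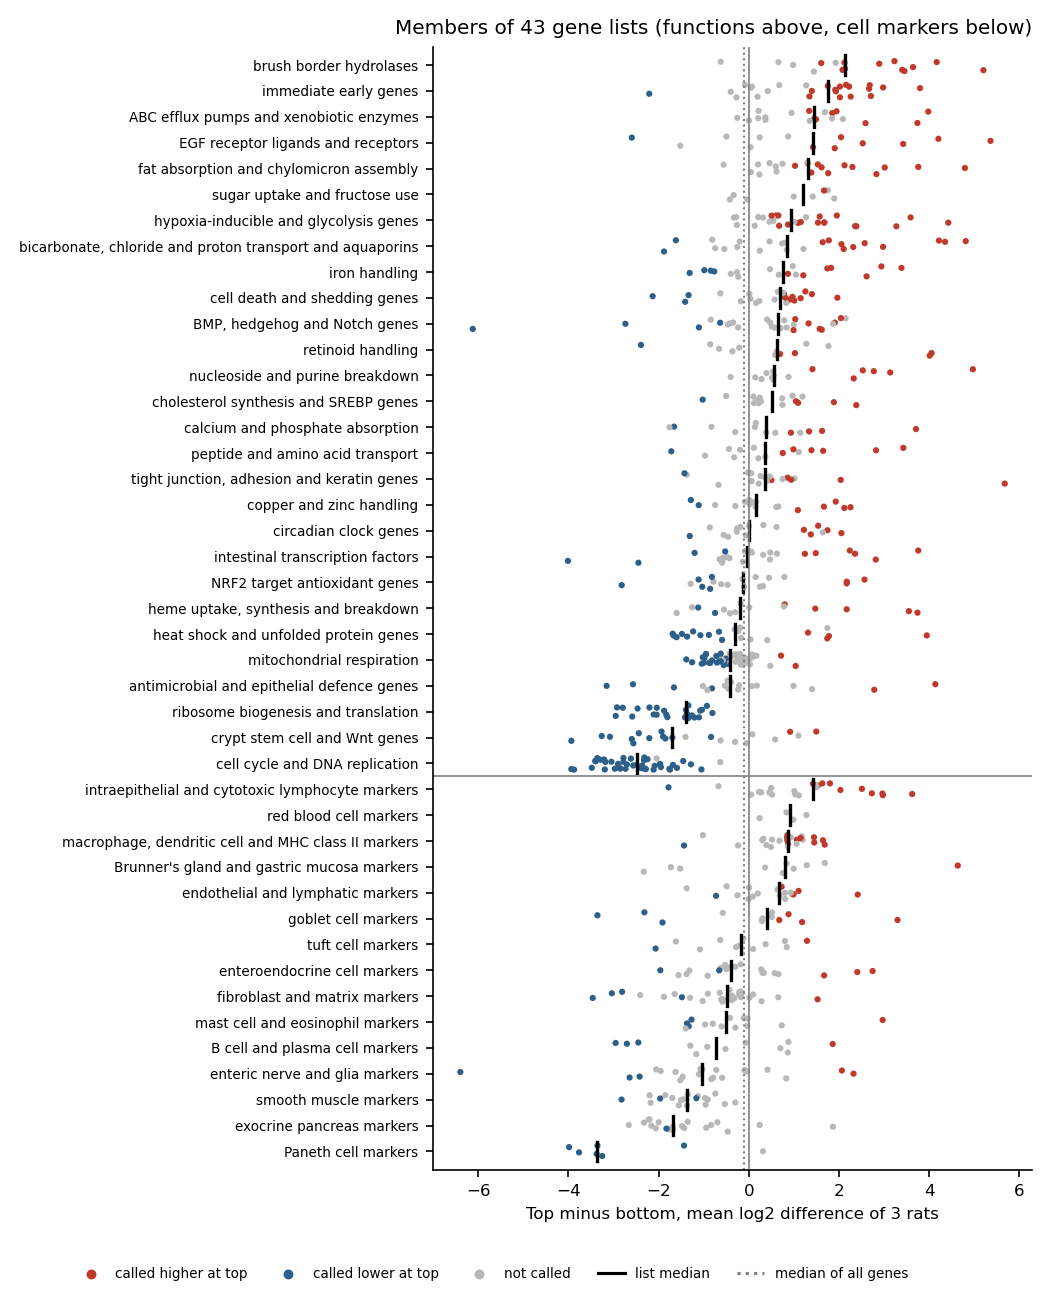
Top minus bottom in log2 units (x axis, mean of 3 rats) for every tested member of the 43 gene lists, 28 of functions above the line and 15 of cell type markers below it. Black bars are list medians, the dotted line is the median of all genes (-0.10), and colours give the call. Brush border genes lie furthest to the right among functions (median 2.13) and cell cycle genes furthest to the left (median -2.49).

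Cytotoxic lymphocyte markers were higher at the top in 10 of 23 (7 without rat 3), against 11.9% of all genes. In this list 1 was lower, and the median was 1.42. Cd8a (0.22), Cd8b (0.27), Itgae (0.05) and Prf1 (1.11) were among the members that did not pass. Gzmb, the protease granzyme B, had 12.86, 12.44 and 13.00 at the top and 9.39, 9.48 and 8.55 at the bottom and rose by 3.62 ± 0.57 (SE, adjusted p = 0.000241). Gzma, granzyme A, had 12.54, 12.45 and 12.58 at the top and 9.51, 10.36 and 9.51 at the bottom and rose by 2.73 ± 0.59 (SE, adjusted p = 0.00287), and Gzmf, a further granzyme, rose by 2.97 ± 0.30 (SE) from a dim bottom. The granzymes are a family of similar genes, and their probe sets may share signal. The T cell receptor subunits did not run together: Cd3d rose by 2.97 ± 0.67 (SE), Cd3e differed by 2.03 ± 0.67 (SE), both with a dim bottom, and Cd3g differed by -1.78 ± 0.28 (SE), with 11.47, 11.33 and 11.83 at the top and 13.09, 13.41 and 13.48 at the bottom. The list had mean levels of 9.97, 9.76 and 10.10 at the top and 8.59, 8.88 and 8.59 at the bottom, with no overlap.

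Macrophage, dendritic cell and MHC class II markers were higher in 10 and lower in 1 of 24 (5 or 6 higher without 1 rat), with a median of 0.86. The lower one was Lyz2, which is also counted among the Paneth cell markers. RT1-Ba, a class II alpha chain, had 14.32, 14.39 and 14.07 at the top and 12.49, 12.74 and 12.50 at the bottom and rose by 1.68 ± 0.30 (SE, adjusted p = 0.000654), on 1 of its 4 probe sets. RT1-Db1, a class II beta chain, rose by 1.45 ± 0.31 (SE) and Cd68, a lysosomal protein of macrophages, by 1.65 ± 0.26 (SE). Cd74, the invariant chain, had 15.44, 15.66 and 15.34 at the top and 14.64, 14.56 and 14.67 at the bottom, a difference of 0.86 ± 0.27 (SE). Class II genes are polymorphic and alike, so the assignment of their signal is uncertain.

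B and plasma cell markers were lower in 3 and higher in 1 of 12. The B cell genes Cd79b (-1.17), Ms4a1 (-0.07), Cd22 (0.70) and Blk (0.88) were among those that did not pass. Jchain, the joining chain of polymeric IgA and IgM, had 13.10, 12.95 and 12.95 at the top and 15.56, 15.67 and 15.88 at the bottom and fell, with a difference of -2.71 ± 0.62 (SE, adjusted p = 0.00449). Mzb1, a chaperone of plasma cells, had 9.92, 9.00 and 10.12 at the top and 12.15, 12.28 and 11.96 at the bottom and fell, with a difference of -2.45 ± 0.42 (SE, adjusted p = 0.000479). Sdc1, the proteoglycan syndecan 1, which epithelium carries as well, rose by 1.86 ± 0.28 (SE). Mast cell and eosinophil markers were lower in 3 and higher in 1 of 14, where Cpa3, a carboxypeptidase of mast cells, fell, with a difference of -1.33 ± 0.27 (SE), and Mcpt9, a mast cell protease, rose by 2.97 ± 0.41 (SE) from a dim bottom. The counts of both lists lie near the shares over all genes, 11.9% higher and 18% lower.

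Most stromal and muscle markers did not pass, which was so for all genes as well (9100 of 12975 did not pass, and 18% were lower). Of 19 smooth muscle markers, 3 were lower and 0 higher, although all 19 differences were negative (median -1.37). The mean level of the list was 11.90, 11.53 and 11.87 at the top and 13.98, 12.56 and 12.96 at the bottom, and the medians of rats 1, 2 and 3 were -2.06, -0.88 and -1.06. Without rat 1, 2 or 3 the number lower was 0, 1 or 1. Des, desmin, had 12.48, 11.72 and 12.38 at the top and 15.08, 12.37 and 13.26 at the bottom, and Acta2, smooth muscle actin, had 12.82, 12.53 and 12.96 at the top and 13.85, 12.58 and 12.78 at the bottom, each brightest in the bottom of rat 1. Rat 1 was also brightest for Vip and Grem1, and the part of muscle and deep stroma in those differences was not tested.

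Fibroblast and matrix markers were lower in 4 (2 without rat 1) and higher in 1 of 30 (0 without rat 2), with a median of -0.49, or -0.29 with median centring. Mgp, matrix Gla protein, had 12.77, 11.14 and 13.06 at the top and 16.01, 14.46 and 15.61 at the bottom and fell, with a difference of -3.04 ± 0.40 (SE, adjusted p = 5.75e-05). Col14a1, a fibril-associated collagen, fell, with a difference of -3.46 ± 0.69 (SE), and had a dim top. Col3a1, a fibrillar collagen, had 15.15, 14.96 and 15.04 at the top and 16.36, 15.70 and 16.16 at the bottom, a difference of -1.02 ± 0.44 (SE) that did not pass (adjusted p = 0.107). Among 22 nerve and glia markers, 2 were higher (1 without rat 2, 0 without rat 3) and 3 lower, and the medians of rats 1, 2 and 3 were -1.55, -0.046 and -1.58. The 2 higher were Phox2a (2.32, adjusted p = 0.0174) and Cartpt (2.06, adjusted p = 0.00381). Over all genes 11.9% were higher and 18% lower, so the list did not stand out by its number of calls. Uchl1, a neuronal deubiquitinase, had 8.09, 6.64 and 6.21 at the top and 10.16, 8.78 and 9.94 at the bottom, with a dim top, a difference of -2.65 ± 0.72 (SE), and an adjusted p of 0.0134 that was 0.133 without rat 3.

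Endothelial and lymphatic markers were higher in 5 and lower in 1 of 18 (3 higher without rat 1 or 2, 0 lower without any 1 rat). Flt1, a receptor for VEGF, rose by 2.42 ± 0.49 (SE) on 1 of its 3 probe sets, from a dim bottom, and Pdpn, podoplanin, which lymphatic vessels carry, had 12.95, 11.64 and 12.46 at the top and 11.45, 10.79 and 11.51 at the bottom and rose by 1.10 ± 0.22 (SE, adjusted p = 0.00172). The member called lower was Lyve1 (-0.73, adjusted p = 0.041), and Prox1 (0.0065) did not pass, so the lymphatic markers did not run together. Of 4 red blood cell markers 0 passed (1 higher without rat 3), and Hbb, beta globin, had 16.08, 14.73 and 15.68 at the top and 15.60, 14.82 and 15.35 at the bottom. Exocrine pancreas markers had mean levels of 7.67, 8.19 and 7.89 at the top and 8.36, 11.52 and 8.04 at the bottom, so the bottom of rat 2 stood apart. Prss1, the protease trypsin, had 8.52, 10.29 and 6.01 at the top and 9.48, 13.48 and 9.84 at the bottom, and 1 of 20 such markers passed, or 0 without any 1 rat. The part of pancreas in other results of rat 2 was not tested.

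**Figure D4:**
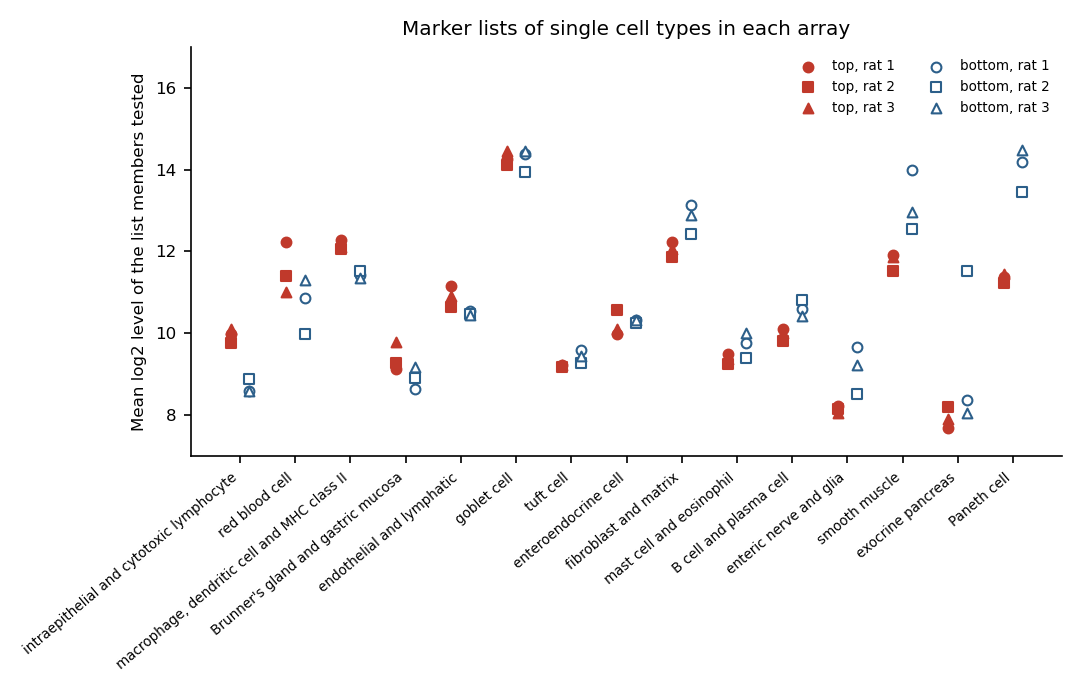
Mean normalized log2 level (y axis) of the tested members of 15 marker lists in each array, with filled symbols for villus top and open symbols for villus bottom, and the 3 rats by symbol shape. Paneth cell markers averaged 11.37, 11.23 and 11.44 at the top and 14.19, 13.46 and 14.47 at the bottom, while exocrine pancreas markers averaged 11.52 in the bottom array of rat 2.

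The gradient of the Belgrade rats fed iron for 6 days was then set against that of 3 other groups, in the same fit, by the difference between their top minus bottom differences. Rats 1 and 2 of the unfed Belgrade group, and likewise of the control group, were nearly identical and were counted as 1 rat, so n is 3 in each. No probe set passed against unfed Belgrade rats, Belgrade rats fed iron for 3 days or control Wistar rats (0 of 26517 each, limma, 0%). An unadjusted p under 0.05 was reached by 988, 1018 and 1326 probe sets (3.73%, 3.84% and 5%), and the smallest adjusted p values were 0.968, 0.468 and 0.271. The 95% interval of such a difference had a median half-width of 1.36, 1.28 and 1.36 log2 units. Over all probe sets the gradients correlated at 0.693, 0.739 and 0.719 between groups, and the groups share no rats. Of the 6015 probe sets that passed, 97.5%, 97.8% and 97.3% had the same sign in the other group, where the calls were made in the rats described here. All 24 genes with the largest rises and falls had the same sign in each of the 3 groups.

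Iron genes gave intervals that included 0 in most of these comparisons. The Cybrd1 difference was 2.94 ± 0.50 (SD, n = 3) with iron for 6 days, against 1.78 ± 0.06 in unfed Belgrade rats (n = 3), 3.32 ± 1.04 with iron for 3 days (n = 4) and 4.86 ± 0.22 in control Wistar rats (n = 3). Its contrast was 1.17 (95% interval -0.66 to 2.99, adjusted p = 1.00) against unfed rats and -1.92 (95% interval -3.75 to -0.09, adjusted p = 0.992) against control rats. For the brightest probe set of Slc40a1 the contrast was 0.38 (95% interval -0.85 to 1.61, adjusted p = 1.00) against unfed rats and -1.08 (95% interval -2.31 to 0.15, adjusted p = 1.00) against control rats. For the brighter probe set of Slc11a2 it was 0.45 (95% interval -1.21 to 2.11, adjusted p = 1.00) against unfed rats and -1.44 (95% interval -3.10 to 0.22, adjusted p = 1.00) against control rats. None of these passed the adjusted test.

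Lrat gave the smallest p against both other Belgrade groups, as seen after the values were known. Its difference was 4.09, 4.17 and 3.91 in the 3 rats fed iron for 6 days, against 1.08 ± 0.19 in unfed rats (SD, n = 3), 1.04 ± 0.85 with iron for 3 days (SD, n = 4) and 1.53 ± 0.14 in control rats (SD, n = 3). The contrast was 2.98 (95% interval 1.84 to 4.11, adjusted p = 0.968) against unfed rats, 3.01 (95% interval 1.95 to 4.08, adjusted p = 0.468) against rats fed iron for 3 days and 2.53 (95% interval 1.39 to 3.66, adjusted p = 0.499) against control rats. None of the 3 passed. Tlr2 had a contrast of 3.20 (95% interval 1.32 to 5.09, adjusted p = 0.806) against control rats, and Cdca8 one of -2.83 (95% interval -4.64 to -1.01, adjusted p = 1.00) against rats fed iron for 3 days, the largest in size among the 24 genes in those 2 comparisons.

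**Figure D5:**
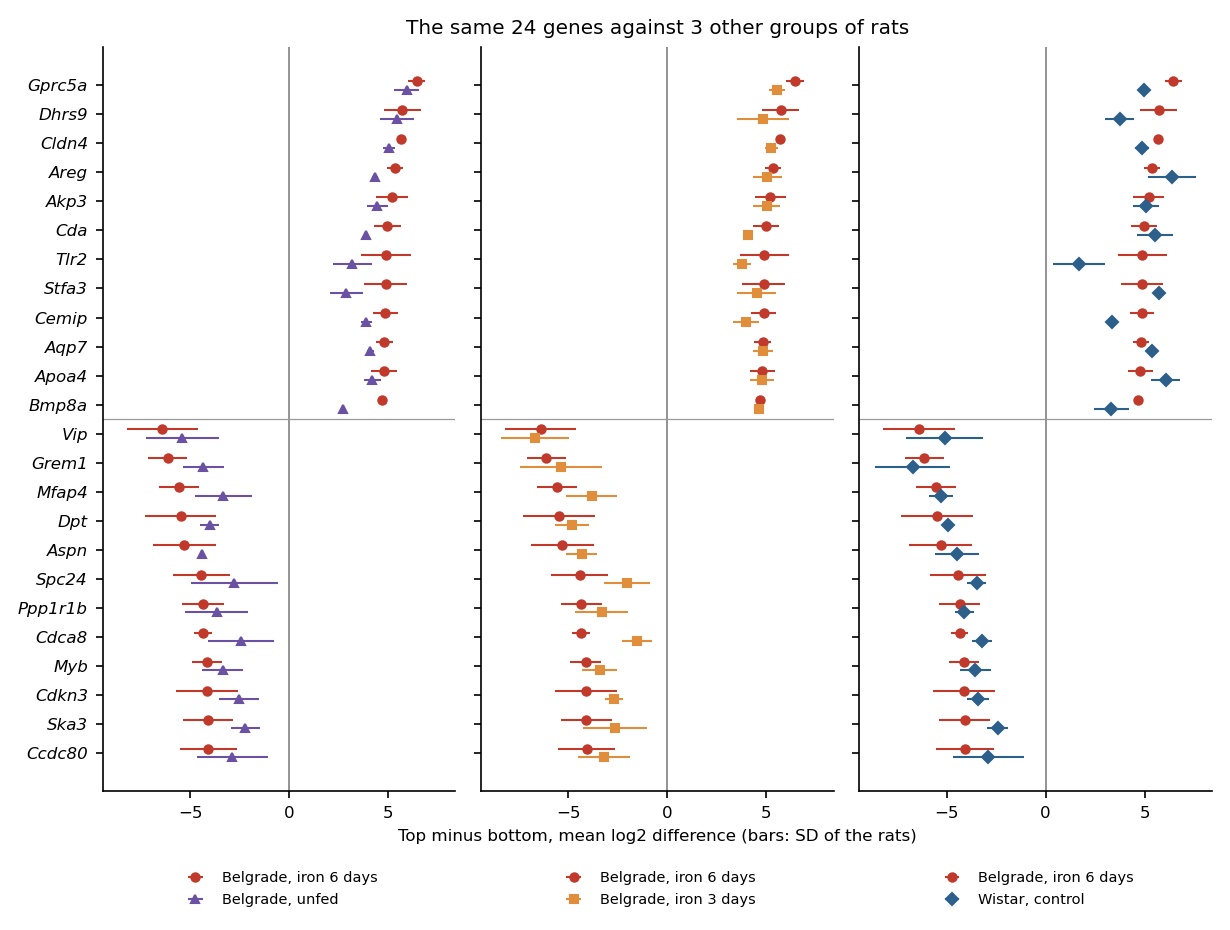
Top minus bottom in log2 units (x axis, mean and SD of the rats) of the 24 genes with the largest rises and falls, in Belgrade rats fed iron for 6 days (red, upper symbol, n = 3) beside unfed Belgrade rats (n = 3), Belgrade rats fed iron for 3 days (n = 4) and control Wistar rats (n = 3). All 24 genes lie on the same side of 0 in every group, and no contrast passed the test.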

How the data were processed

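RNA of pooled villus sections was hybridised to Affymetrix rat arrays, 1 per rat and segment, per the labels' protocols. Each deposited value is a linear intensity of 1 probe set on 1 array. The signal algorithm is not given in the sources used here. The 6 arrays had 2% trimmed means of 2486 to 2491, so the authors had scaled each array to a common mean, which hides any change common to most genes. The number of arrays limits the precision.

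From the deposited intensities, 44 units (the 10th percentile of villus values) were added before log2, the 44 villus arrays were quantile normalized, since log2 medians spanned 0.932, and 57 control probe sets were left out. A probe set was kept if it lay above an array's 40th percentile in 3 or more villus arrays. Of 31042 probe sets, 20826 have exactly 1 gene symbol in the platform annotation, 436 several and 9780 none, and 14217 genes resulted, of which 1242 did not pass the filter. Array values name no genome build.

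Differences within a rat were fitted with limma (version 3.58.1, R 4.3.3, data.table version 1.17.8; lmFit, eBayes with a trend) in 1 fit of 6 groups. The pairing of top and bottom comes from the labels, by rat number and adjacent sample numbers. After group means were taken off, same-rat arrays correlated at only 0.0315, 0.0607 and 0.000687. Rats 1 and 2 of the control group and of the unfed Belgrade group were nearly identical (robust SD of their differences 0.152 to 0.183, below a limit of 0.2) and were averaged, which left 20 of 22 rats. Promoters were searched with Python 3.11.15 and pandas 2.3.3, and figures drawn with matplotlib 3.10.9.

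Named genes are 5 iron genes always, the 12 largest rises and 12 largest falls that separate the segments, up to 4 called members of each list, and defining markers. Lists use the brightest probe set of a gene and got no test of their own. The members and lists were chosen with earlier results of these data known. Alternatives changed the added units, scaling, filter, trend, the rats in the fit and the pairing, and left out each rat.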

Additional observations from a re-analysis of the deposited data

Results flagged for a closer look

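A set of 33 probe sets, with genes of the largest falls among them, was looked at in each group of 4 counted rats. The search was for a single rat far from the others, which chance finds in about 1 in 20 groups. Some such cases are therefore expected by chance among 33 probe sets. In Belgrade rats fed iron for 3 days, the Mfap4 difference was -1.92 in rat 2, against -4.60 to -4.25 in the other 3. In the same group the Ska3 difference was -5.03 in rat 3, against -1.99 to -1.65 in the other 3. Both genes had a dim villus top in the rats fed iron for 6 days.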

How the results depend on the processing

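Counts of probe sets passing at the villus top lay within 1.5 times of 2758 higher and 3257 lower under all alternatives but 2. With the spread from the 3 rats alone, 0 were higher and 0 lower (8309 at an unadjusted p under 0.05), and all 172 named calls were lost. Without 1 rat, 1732 to 1982 were higher and 1982 to 2267 lower, lowest without rat 3, and 23 or 24 of the 172 named calls were lost, where fewer samples remain. Without the replicate block, that is with no pairing within a rat, 2447 were higher and 3030 lower, and 3 of the 172 calls were lost. With a random replicate block, the counts were 2902 and 3460. With the values as deposited the median of all probe sets was -0.161, and 36.3% of calls were higher, against 45.9%. Apart from these, 0 to 5 of the named calls were lost. The less bright Slc40a1 probe set lay between -0.0957 (without rat 1) and 0.501 when 1 rat was left out. Contrasts that gave 0 probe sets against control Wistar rats gave 1 with a stricter filter and 0 to 1 without 1 rat. Against unfed Belgrade rats they gave 2 in a fit of Belgrade rats only and 0 to 1 without 1 rat, and against rats fed iron for 3 days 0 to 2 without 1 rat; the cause was not tested. Dim levels near the added 44 units limit the size of the largest folds.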
